A study of Homo sapiens with 3 samples.

Results

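The baseline transcriptome of RWPE1 cells with an intact OLFM4 gene was described from 1 library of 3 in the series. The members were chosen by genotype label alone, so the profile rests on 1 library labelled OLFM4-wild, and the other 2 libraries, labelled OLFM4-knockout and OLFM4-active, were not compared with it beyond the level of OLFM4 as a check of the labels. RWPE1 is an established line of human prostate epithelial cells that was immortalised with genes of a human papillomavirus, and it is grown in a medium made for prostate epithelial cells. All 3 libraries came from this line, and each was made from total RNA after removal of ribosomal RNA, keeping strand. According to the study's methods, RNA was taken from bulk cells sorted for GFP, and the GFP reporter cells with OLFM4 left intact had been made with an OLFM4 activation plasmid and selected in puromycin. Whether the library described here came from such reporter cells or from parental cells is not given in the sources used here.

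The human prostate gland is lined by basal cells, which sit on the basement membrane and carry keratins 5 and 14 and the transcription factor p63, and by luminal cells above them, which carry keratins 8 and 18 and secrete the proteins of prostatic fluid. Rare neuroendocrine cells and, in the urethra and proximal ducts, club and hillock cells complete the epithelium. Basal cells of stratified epithelia hold on to the matrix through hemidesmosomes and to each other through desmosomes, and on leaving the basal layer they can turn on the genes of cornification.

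The OLFM4-wild library held 16309906 counts over 58037 genes, the smallest total of the 3 libraries, which ranged up to 58837147. Levels are given as CPM, the count per 1000000 counts of this library, with the exact 95% binomial interval, which covers counting error only, since there was no replicate. Levels of different genes are compared as CPM per kilobase of exon (CPM per kb), because a longer transcript yields more fragments. An order by counts or CPM is named as such. Exons of all transcripts of a gene were merged for its length, and the order of some genes turned per kb of the longest transcript. Of 19616 protein-coding genes, 13064 reached 1 CPM, which takes 17 counts, and this background share of 66.6% is the one against which the lists below are read. A further 1405 coding genes lay above 3 counts and under 1 CPM, and 5147 had at most 3 counts, of which 3940 had 0. A count of 0 is read against a floor of 3 counts, or 0.184 CPM (the exact interval of a count of 0 runs to 0.226 CPM), so such genes were not detected at this depth, which does not show that they are absent. In bulk RNA, fewer cells with a transcript and less of it per cell cannot be told apart. OLFM4, the gene the study manipulated, encodes the secreted glycoprotein olfactomedin 4, and it had 214 counts (13.1 CPM, interval 11.4 to 15.0) here. It had 131 counts (2.23 CPM, interval 1.86 to 2.64) in the larger knockout library and 16 (0.689 CPM, interval 0.394 to 1.12) in the library labelled active, so the label of that last library goes against its OLFM4 level.

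Keratin mRNAs led the profile. KRT5, the type II keratin of basal cells (chr12:52514575-52520530, minus strand, GRCh38), was the coding gene with the most counts, with 222265 counts or 13628 CPM (interval 13571 to 13684). KRT17, a type I keratin of basal and wound-edge cells (chr17:41619442-41624842, minus strand), reached 6716 CPM. KRT14, the type I partner of KRT5 (chr17:41582279-41586895, minus strand), reached 4463 CPM. Per length these were also the top 3 of all coding genes, with KRT5 at 3297, KRT17 at 2242 and KRT14 at 1979 CPM per kb, and together they held 2.98% of all coding counts and 72.8% of the counts in keratin genes. KRT5 stood 1.67-fold above KRT14 per kb of merged exon (counting interval 1.65 to 1.68) and 2.23-fold above it per kb of the longest transcript, so the order of the pair held on both length scales and its size did not. Summed over all members, type II keratins stood at 0.864 times the type I level, and at 0.987 times per kb of the longest transcript.

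**Figure D1:**
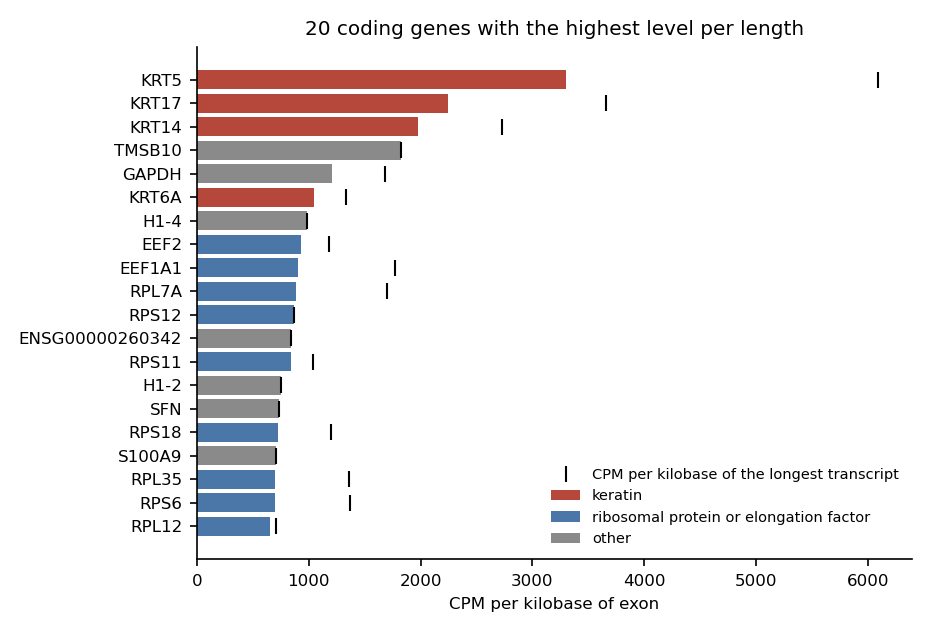
The 20 protein-coding genes with the highest level per length, as CPM per kilobase of merged exon (bars, linear axis) in the 1 OLFM4-wild library, with black ticks for the value per kilobase of the longest transcript. KRT5 stands at 3297 and RPL12, the lowest of the 20, at 653. ENSG00000260342 lies within the exons of ARL6IP1 over its whole length, so its counts are uncertain.

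Behind the keratins came genes of translation, energy metabolism, the cytoskeleton and the epidermal programme. The elongation factors EEF1A1 and EEF2, which carry aminoacyl-tRNA and move the ribosome, stood at 906 and 931 CPM per kb. Per kb of the longest transcript their order turned, to 1776 and 1186. GAPDH, the glycolytic enzyme, stood at 1205 CPM per kb, and TMSB10, a small peptide that binds actin monomers, at 1821. The linker histone genes H1-4 and H1-2, whose mRNAs end without a poly(A) tail, stood at 985 and 753 CPM per kb. Ribosomal protein genes, 79 of which reached 1 CPM, took 7.10% of coding counts. By counts alone, large structural genes ranked higher, with the desmosomal plaque protein DSP at 5957 CPM, the scaffold AHNAK at 3718 CPM and the growth factor receptor EGFR at 2324 CPM. The library was not dominated by a few genes. The 20 coding genes with the most counts held 9.25% of coding counts, 180 genes held 25% and 1086 genes held 50%.

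The sequences below let KRT5 and a second abundant gene be set beside genes with few or no counts. Each is the 120 bases directly before the RefSeq start, 5′ to 3′ (GRCh38.p14), with CG dinucleotides in capitals; such promoter windows hold many CG in most widely used genes and few in many genes restricted to a tissue. KRT5 lies at chr12:52520395-52520514 on the minus strand, DSP at chr6:7541551-7541670 on the plus strand, OLFM4 at chr13:53028693-53028812 on the plus strand, CHGA, a neuroendocrine granule protein, at chr14:92923030-92923149 on the plus strand, and PTPRC, the leukocyte surface phosphatase CD45, at chr1:198638920-198639039 on the plus strand.
KRT5: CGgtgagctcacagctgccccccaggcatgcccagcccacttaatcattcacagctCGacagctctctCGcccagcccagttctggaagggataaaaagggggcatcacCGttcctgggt
DSP: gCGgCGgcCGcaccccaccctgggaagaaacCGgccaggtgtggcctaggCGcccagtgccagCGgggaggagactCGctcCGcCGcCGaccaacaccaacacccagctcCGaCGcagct
OLFM4: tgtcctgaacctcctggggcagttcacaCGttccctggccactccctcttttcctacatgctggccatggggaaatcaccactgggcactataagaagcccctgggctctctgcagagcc
CHGA: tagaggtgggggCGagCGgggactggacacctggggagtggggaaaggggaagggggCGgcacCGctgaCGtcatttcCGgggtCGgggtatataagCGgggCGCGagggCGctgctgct
PTPRC: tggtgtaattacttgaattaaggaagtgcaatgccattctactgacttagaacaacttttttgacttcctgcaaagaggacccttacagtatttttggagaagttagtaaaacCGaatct

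Over a window from 250 bases before to 50 bases after the start, KRT5, the most abundant coding gene, held 7 CG and DSP held 37. OLFM4 held 3, CHGA 24 and PTPRC 1, and the last 2 of these genes had 0 counts. The 5 genes, counted at the RefSeq start, therefore did not order by CG content. Medians of classes of genes, counted at a different start, rose with level up to 1000 CPM. Read from the GRCh38 genome at the GENCODE start of each coding gene, the median was 5 CG for genes with 0 counts, 8 for 1 to 3 counts, 10 for genes above 3 counts and under 1 CPM, 19 for 1 to 10 CPM, 23 for 10 to 100 CPM and 24 for 100 to 1000 CPM. The 60 genes at 1000 CPM or more had a median of 19 in these windows. In RefSeq windows, which 45 of these 60 genes had, the median was 28, as it was for 100 to 1000 CPM. The set of genes differed along with the window, so the source of this difference cannot be told and was not tested. TATAAA on either strand, between 40 and 20 bases before the start, was found in 3.30% of all coding genes. It was found in 6.66% of those with at most 3 counts and in 1.86% of those at 1 CPM or more. Of the 60 genes at 1000 CPM or more only 4 had it, or 6.67%, and of the 100 genes highest in CPM per kb 20%. Those 100 had a median exon length of 1919 bases, against 5295 for genes at 1 CPM or more. In RefSeq windows, matched for part of the genes, the share was 15.6% at 1000 CPM or more (7 of 45 genes) and 8.36% at 3 counts or fewer. These are descriptions of letters in a window, with no test.

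**Figure D2:**
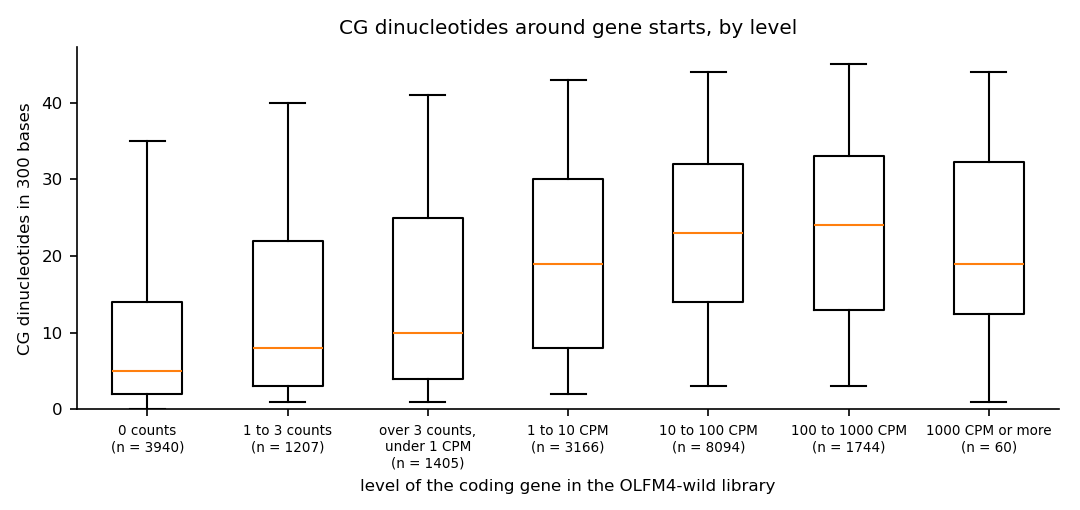
CG dinucleotides in the 300 bases around the start of each of 19616 coding genes, by level in the OLFM4-wild library. Boxes span the quartiles with the median as a line and whiskers run from the 5th to the 95th percentile; the median climbs from 5 at 0 counts to 24 at 100 to 1000 CPM.

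Basal cell genes were mostly high, on markers and a list chosen with earlier results of these data known. All 4 of KRT5, KRT14, KRT17 and TP63 were abundant, and TP63, which encodes p63 (chr3:189631389-189897276, plus strand), had 7514 counts or 461 CPM (interval 450 to 471). Of the 19 genes on the basal list, 19 reached 1 CPM, 18 stood above 5.22 CPM per kb, the median of expressed coding genes, and 14 were among the 1000 highest coding genes per kb. The list's median was 68.1 CPM per kb, against 2.08 over all coding genes. SFN, the epithelial stratifin, stood at 736 CPM per kb and S100A2, a calcium-binding protein of basal cells, at 212. KRT15, a keratin of basal progenitors, stood much lower, at 23.6 CPM per kb. NGFR, the low-affinity neurotrophin receptor used to mark basal cells in tissue, was the lowest of the list, with 48 counts (2.94 CPM, interval 2.17 to 3.90).

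Genes of the hemidesmosome were high as a group. COL17A1, its transmembrane collagen, stood at 233 CPM per kb. ITGA6 and ITGB4, the integrin chains that bind laminin there, stood at 195 and 133 CPM per kb, a ratio of 1.47 (counting interval 1.44 to 1.5). The plakins PLEC and DST, which tie the integrin to keratin filaments, stood at 111 and 26.8. LAMB3 and LAMA3, chains of the epithelial laminin that these integrins hold, stood at 46.4 and 19.1 CPM per kb.

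Luminal genes split by kind. The simple-epithelial keratins were all at 1 CPM or more, with KRT19 at 168, KRT7 at 128, KRT18 at 64.1 and KRT8 at 45.7 CPM per kb. KRT5 stood 72.2-fold above KRT8 (counting interval 70.2 to 74.2; 55.4-fold per kb of the longest transcript) and KRT14 stood 30.9-fold above KRT18. The ratio of KRT8 to KRT18 was 0.712 per kb of merged exon and 1.17 per kb of the longest transcript, so their order turned with the length used. The order of KRT19 and KRT7 turned as well, to 283 and 315 per kb of the longest transcript. KRT8 and KRT18 also have 51 and 68 annotated pseudogenes, and since only uniquely mapped reads were counted their levels are uncertain. The same limit applies to other abundant genes, such as RPL7A with 80 annotated pseudogenes, GAPDH with 65, EEF1A1 with 49 and KRT17 with 8. CD24, a surface glycoprotein used to sort luminal cells, stood at 82.5 CPM per kb.

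Secreted prostate proteins were at or near 0. Of 7 on the list, 1 reached 1 CPM: ACP3, prostatic acid phosphatase, with 152 counts (9.32 CPM, interval 7.90 to 10.9). KLK3, which encodes prostate-specific antigen, had 2 counts, and TGM4, a prostate transglutaminase, had 5. KLK2, KLK4, MSMB and NPY had 0. Among luminal transcription factors CREB3L4 had 186 counts (11.4 CPM, interval 9.82 to 13.2), FOXA1 had 103 counts (6.32 CPM, interval 5.15 to 7.66), HOXB13 had 11 and SPDEF had 0. The surface enzyme DPP4 (CD26), which the study stained as a stem or progenitor marker, had 34 counts (2.08 CPM), and the prostate membrane protein genes FOLH1 and TMPRSS2 had 0 and 1. In all, 10 of 21 luminal genes reached 1 CPM, or 47.6%, below the background share.

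Hillock genes were detected and club genes mostly were not. Of 6 hillock genes, 5 reached 1 CPM. KRT4 and KRT13, keratins of non-cornifying stratified epithelium, stood at 108 and 97.5 CPM per kb, and LY6D, a surface protein of committed epithelial progenitors, stood at 83.7. Of 10 club genes, 3 reached 1 CPM. These were LCN2, a siderophore-binding protein, with 168 counts, OLFM4 with 214 and PSCA, prostate stem cell antigen, with 83. OLFM4 was placed on the club list here, but the study found it in both the club and the hillock cluster of normal prostate. In RWPE1 cells the study found it most often with LY6D and KRT13, which are on the hillock list. OLFM4 stood at 4.62 CPM per kb, which put it at place 7070 of the coding genes by level per length. SCGB1A1 and SCGB3A1, the secretoglobins that define club cells, had 0 counts, as did PIGR, LTF and CXCL17. By immunofluorescence the study reported SCGB1A1 together with OLFM4 in RWPE1 cells. That is a measure of protein in single cells, while the counts here are RNA of bulk cells, and the difference was not tested.

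**Figure D3:**
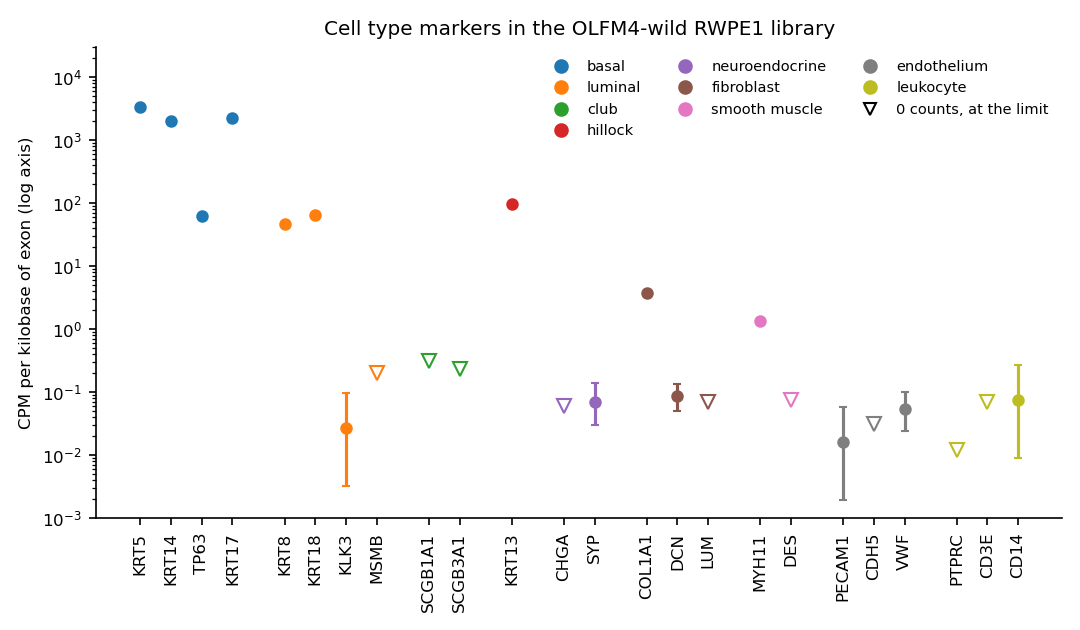
Level of the cell type markers as CPM per kilobase of exon (log axis) in the OLFM4-wild library, with exact 95% counting intervals; open triangles mark genes with 0 counts, drawn at the level that 3 counts would give. The 4 basal markers lie between 61.6 and 3297, and the plotted markers of club, neuroendocrine, endothelial and leukocyte cells, a few defining genes of each list, have at most 3 counts, except SYP and VWF, with 8 and 9.

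Markers of other cell types were read from whole lists. Of 12 neuroendocrine genes 0 reached 1 CPM, and the list summed to 2.02 CPM, with CHGA at 0 and the synaptic vesicle protein gene SYP at 8 counts. The leukocyte list summed to 39.6 CPM, of which 34.9 came from CD68, a lysosomal gene whose exons overlap another gene over 81.6% of their length. CSF1R, a receptor of macrophages, had 46 counts (2.82 CPM), ITGAM and CORO1A had 14 each and CD14 had 2. PTPRC, CD3E, CD2, MS4A1, FCGR3A, LYZ and TYROBP had 0 counts. The endothelial list summed to 7.54 CPM, of which EGFL7, a secreted protein, gave 4.97 with 81 counts. KDR, a receptor of endothelial growth factors, had 21 counts (1.29 CPM), VWF 9, PECAM1 2 and CDH5 0. Of 12 fibroblast genes 6 reached 1 CPM, and the list's sum of 438 CPM was carried by VIM, the intermediate filament vimentin, at 391 CPM. COL1A1, a chain of fibrillar collagen, had 549 counts (33.7 CPM, interval 30.9 to 36.6), while LUM, COL3A1 and COL6A3 had 0 counts and DCN 18. The smooth muscle list summed to 67.1 CPM, and 4 of its 8 genes reached 1 CPM. SMTN, smoothelin, had 587 counts (36.0 CPM, interval 33.1 to 39.0) and MYH11, the smooth muscle myosin heavy chain, had 388 (23.8 CPM, interval 21.5 to 26.3). TAGLN had 72 counts, ACTA2 had 47, and DES, CNN1, LMOD1 and ACTG2 had 0.

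Desmosomes and adherens junctions were well represented. Of 34 cell-cell adhesion genes 31 reached 1 CPM. The plaque genes DSP and PKP1 stood at 437 and 419 CPM per kb, and JUP, plakoglobin, at 173. The desmosomal cadherin DSG3 of basal layers stood 2.58-fold above DSG2 (1.55-fold per kb of the longest transcript), and DSC3 stood 3.15-fold above DSC2. DSG1, the desmoglein of upper epidermal layers, stood at 45.7 CPM per kb, and DSG4 had 3 counts. E-cadherin (CDH1) and P-cadherin (CDH3) stood at 50.5 and 51.0 CPM per kb, a ratio of 0.989 (counting interval 0.952 to 1.03) that became 0.870 per kb of the longest transcript. N-cadherin (CDH2) was 30.5-fold below CDH1 (18.0-fold per kb of the longest transcript) and VE-cadherin (CDH5) had 0 counts. Among tight junction genes CLDN1 stood at 41.6 CPM per kb and CLDN3 had 2 counts.

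Cornification genes were detected beside the basal ones. Of 32 genes on the list, 30 reached 1 CPM and the other 2, LORICRIN and LCE3E, had 9 and 8 counts. KRT6A and KRT16, the pair induced in activated keratinocytes, stood at 1049 and 638 CPM per kb. KRT10 and KRT1, the pair of the epidermal spinous layer, stood at 627 and 207. KRT6B and KRT6C stood at 86.5 and 86.4, and since KRT6A, KRT6B and KRT6C are near-identical copies, the split of reads among them is uncertain. S100A9 and S100A8, the chains of calprotectin, stood at 705 and 193 CPM per kb. The envelope precursor SPRR1B stood at 161, the crosslinking enzyme TGM1 at 52.8 and filaggrin (FLG) at 16.7. Other members were low: of the 3 crosslinking enzymes TGM3 and TGM5 had 34 and 35 counts, and S100A7 and S100A12 had 59 and 28. Exons of TGM3 overlap another gene over 94.8% of their length. The median was 207 CPM per kb for 7 suprabasal keratins and 6.40 for 13 envelope genes. Involucrin (IVL) stood lower, at 5.67 CPM per kb with 199 counts.

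Keratin genes are of epithelial and hair kinds. Of 55 keratin genes, 25 reached 1 CPM, or 45.5%, and together keratins took 4.10% of coding counts. All 25 were epithelial keratins, 10 of 18 of type I and 15 of 20 of type II. Of 11 type I and 6 type II hair keratin genes 0 reached 1 CPM, with KRT86 the highest at 14 counts. KRT20, the keratin of intestinal and urothelial surface cells, had 2 counts, and KRT75, of the hair follicle companion layer, had 277 counts (17.0 CPM).

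**Figure D4:**
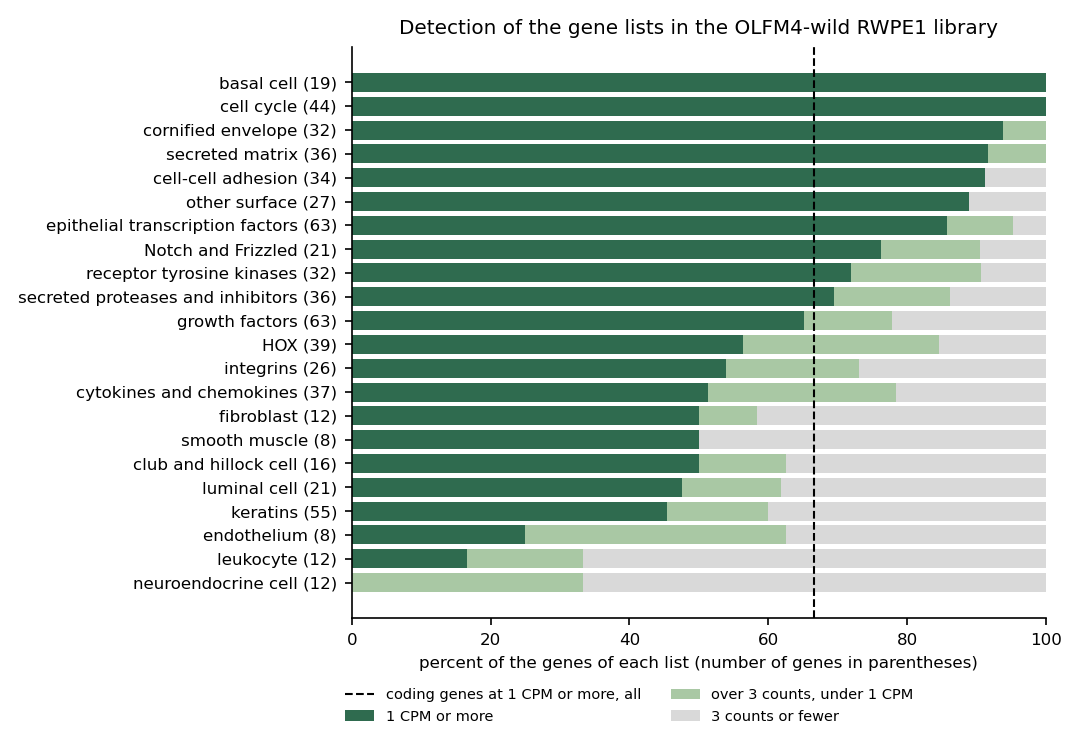
Share of the genes of each list that reached 1 CPM (dark green), lay above 3 counts and under 1 CPM (light green) or had at most 3 counts (grey) in the OLFM4-wild library. The dashed line is the share of all coding genes at 1 CPM or more, 66.6%; basal and cell cycle genes lie at 100% and neuroendocrine genes at 0.

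Matrix genes of the basement membrane and of the interstitium were both detected. Of 36 matrix genes 33 reached 1 CPM, 17 of 19 for the basement membrane and 16 of 17 for interstitial matrix. The interstitial list leaves out COL3A1, COL6A3 and LUM, matrix genes with 0 counts that were placed on the fibroblast list. Its share therefore depends on how the lists were drawn. THBS1, the adhesive glycoprotein thrombospondin-1, led at 181 CPM per kb and 1658 CPM (interval 1638 to 1678). TGFBI, a matrix protein named for its induction by TGF-beta, stood at 129 CPM per kb. LAMA5, a chain of the widespread epithelial laminins, stood at 50.9, the anchoring fibril collagen COL7A1 at 24.0 and fibronectin (FN1) at 9.13. POSTN, periostin, had 8 counts.

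On the lists used, protease inhibitors were higher than proteases, most of all against metalloproteinases. All 15 inhibitor genes reached 1 CPM, with a median of 27.3 CPM per kb, against 3 of 10 metalloproteinase genes, with a median of 0.169. The medians were 2.47 for 9 kallikrein genes and 13.3 for 2 plasminogen activator genes. The inhibitor list is a selection made with earlier results known, and it leaves out 2 of 13 SERPINB genes that lay under 1 CPM. SLPI and PI3, inhibitors of neutrophil elastase, stood at 272 and 200 CPM per kb. CSTA, cystatin A, stood at 142 and SERPINB5, maspin, at 108. Of the kallikrein genes outside the luminal list, KLK5, KLK7, KLK8, KLK10 and KLK11 reached 1 CPM, between 2.47 and 7.05 CPM per kb, and KLK13 had 0 counts. MMP14, the membrane-bound metalloproteinase, stood at 39.0 CPM per kb, while MMP1 and MMP9 had 3 and 15 counts. The urokinase gene PLAU stood at 26.1 CPM per kb.

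Among growth factors and their receptors, several ligands of EGFR were detected together with the receptor. Of 63 growth factor genes 41 reached 1 CPM, or 65.1%, close to the background share. FGFBP1, which releases FGF from matrix, led at 131 CPM per kb. AREG, amphiregulin, followed at 63.6, EPGN, epigen, stood at 13.5 and TGFA at 9.89, while EGF had 8 counts. TGFB1 stood at 21.0 CPM per kb, and the activin-binding proteins FSTL3 and FST at 22.5 and 17.2. Of 19 WNT genes 10 reached 1 CPM, led by WNT10A at 10.3 CPM per kb. Factors known mainly from stroma were low, with FGF7 at 3 counts, IGF1 at 8 and FGF10 and HGF at 0.

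On the receptor side, EGFR had 37898 counts and stood at 146 CPM per kb. ERBB2 stood at 11.9 CPM per kb, ERBB3 at 5.08, and ERBB4 had 1 count. All 4 FGF receptor genes reached 1 CPM, with FGFR3 highest at 15.9 CPM per kb. EPHA2, an ephrin receptor, stood at 35.4, AXL at 29.2 and MET, the receptor of HGF, at 28.2. Of 32 receptor tyrosine kinase genes 23 reached 1 CPM. Among Notch receptors NOTCH3, NOTCH1 and NOTCH2 stood at 40.8, 37.6 and 18.8 CPM per kb, and NOTCH4, the endothelial member, had 12 counts. The ligand JAG1 stood at 30.2 CPM per kb, JAG2 at 12.7 and DLL1 at 2.46, and DLL4 had 0 counts. FZD6 was the highest Frizzled at 26.0.

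Integrins bind cells to matrix as pairs of an alpha and a beta chain. Of 26 integrin genes 14 reached 1 CPM, and after ITGA6 and ITGB4 the highest were ITGA3 at 35.3 and ITGB1 at 23.2 CPM per kb. Among integrin genes known from leukocytes, ITGAE had 147 counts (9.01 CPM), ITGB7 22 (1.35 CPM), ITGAM 14, ITGAX 3, ITGB2 2 and ITGAL and ITGAD 0. CD44, the hyaluronan receptor that the study used to mark progenitor-like cells, stood at 65.9 CPM per kb with 10733 counts (658 CPM). EPCAM stood at 15.1 CPM per kb. PROM1, the progenitor antigen CD133, and the mucin MUC4 had 0 counts.

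Of 37 cytokine and chemokine genes 19 reached 1 CPM. CXCL14, a chemokine made by resting epithelia, led with 5116 counts (314 CPM, interval 305 to 322) and 159 CPM per kb. The epithelial alarmins IL18 and IL1A stood at 37.2 and 28.9 CPM per kb. The inflammatory genes CXCL8 and IL6 had 56 and 65 counts, TNF had 4, and CXCL12, CSF2 and CSF3 had 0. The median of the list was 0.507 CPM per kb.

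Of 63 transcription factor genes of several epithelial and mesenchymal families 54 reached 1 CPM, among them 10 of 12 basal and squamous factors and 5 of 7 mesenchymal factors. JUNB, a subunit of AP-1, led at 202 CPM per kb, and the immediate-early genes EGR1 and FOS stood at 108 and 97.9. KLF5, a factor of proliferating basal epithelium, stood at 144, and KLF4, of differentiating layers, at 31.4. MYC, the growth regulator the study centred on, had 4982 counts (305 CPM, interval 297 to 314), and MYCN had 2 counts. Beside TP63, the basal and squamous factors TRIM29 and BNC1 stood at 72.3 and 33.8. SOX2 had 8 counts and TFAP2B 0. The grainyhead factors GRHL2, GRHL3 and GRHL1 stood at 14.5, 8.82 and 4.83. Of the mesenchymal factors SNAI2 stood at 18.4 CPM per kb, ZEB1 and ZEB2 had 44 and 21 counts, and PRRX1 had 0.

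HOX genes encode the factors that mark position along the body axis of the embryo, and the highest of them here were members of the posterior groups of clusters A and D. Of 39 HOX genes 22 reached 1 CPM. HOXD10 led at 27.0 CPM per kb with 1095 counts (67.1 CPM, interval 63.2 to 71.2). HOXD11 and HOXA9 followed at 16.0 and 15.4 CPM per kb. HOXA10 and HOXB7 stood at 5.69 and 5.32, and these 5 were the HOX genes above the median of expressed coding genes. By cluster, 10 of 11 HOXA genes reached 1 CPM, 2 of 10 HOXB genes, 4 of 9 HOXC genes and 6 of 9 HOXD genes. HOXB13, the posterior gene linked with prostate luminal identity, was at 0.674 CPM (interval 0.337 to 1.21). HOXD10 and HOXD11 share exons over part of their length, as do some neighbours in other clusters, so reads there can count for both.

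**Figure D5:**
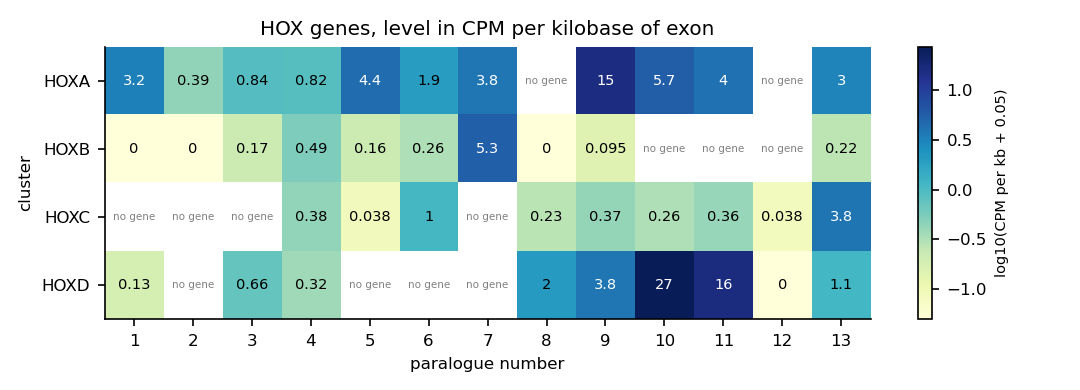
Level of the 39 HOX genes in the OLFM4-wild library as CPM per kilobase of exon (number in each cell), by cluster (rows) and paralogue number (columns); the color is log10 of that level plus 0.05. HOXD10, HOXD11 and HOXA9 are the darkest cells, at 27.0, 16.0 and 15.4, and HOXB is the palest row, with HOXB7 its highest at 5.32.

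Cell cycle genes were all on. Of 44 genes 44 reached 1 CPM, with a median of 22.8 CPM per kb. PCNA, the replication clamp, led at 143 CPM per kb. The mitotic genes TOP2A, CCNB1 and MKI67 stood at 94.6, 94.3 and 81.8, MKI67 with 17128 counts. CDKN1A, CDKN2B and CDKN2A, inhibitors of cyclin-dependent kinases, stood at 53.8, 41.5 and 34.9 CPM per kb. Per kb of the longest transcript they stood at 71.1, 43.1 and 129, so CDKN2A was then the highest of them. RB1, the retinoblastoma gene, stood at 28.6, and CCNE1 at 2.84.

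Some gene families lay largely at or under 3 counts, against 26.2% of all coding genes. Of 410 olfactory receptor genes 398 had at most 3 counts, and OR3A2 was the highest with 20. All 94 hair keratin-associated protein genes and all 13 IFNA genes had at most 3 counts, as had 38 of 40 beta-defensin genes. Of 18 late cornified envelope genes 15 had at most 3 counts, with LCE3D the highest at 27, although some other cornification genes were abundant. By contrast 38 of 515 zinc finger genes named ZNF and 0 of 13 SERPINB genes had at most 3 counts. Olfactory receptor genes made up 7.73% of the 5147 coding genes with at most 3 counts.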

How the data were processed

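The values used were gene counts as deposited by the authors, 1 column a library, not normalized. Per the study's methods and processing notes, adapters were trimmed with cutadapt, read pairs were aligned to GRCh38 with HISAT2, and featureCounts counted uniquely mapped, reversely stranded pairs on GENCODE genes. Some overlapping genes hold identical counts, so a pair could count for more than 1 gene, and the 37 genes of the mitochondrial genome are all listed at 0. Here CPM was computed over the library's total, and CPM per kb over merged exons of GENCODE v44 (98.2% of genes matched by identifier). Intervals are exact binomial (Clopper-Pearson, scipy 1.17.1) at 95%, and the floor was 3 counts. Interval coverage was checked on counts simulated with counting error alone, which cannot show replicate spread or the effect of pairs counted for more than 1 gene. With 1 library in the group, no test was made. TMM and RLE factors came from edgeR 4.0.16.

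Members and lists (22 lists, 616 distinct genes) were chosen with earlier results of these data known. Named genes are cell type markers, the 20 highest in CPM and in CPM per kb (at least 10 counts), up to 5 highest and 4 lowest of each list and role, and genes the study names; some were left out, and a few genes are not reported here. A few others, such as EPCAM, IL6, CXCL8 and TNF, were added after their values were seen. RefSeq promoters were matched by symbol for 77.6% of coding genes, and for 73.2% of those with at most 3 counts, so the planned comparison by that table was void and genome windows replaced it, a choice made after seeing the data.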

Additional observations from a re-analysis of the deposited data

How the results depend on the processing

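No paired analysis was possible because the group holds 1 library. With no replicate, depth limits low genes: halving the counts would leave an expected 13028 coding genes at 1 CPM or more and raise those at or under 3 counts from 5147 to 5758. Counts of coding, basal and luminal genes at 1 CPM stayed within 1.5 times under every alternative run (12955 to 13239 coding genes by scaling, 13572 at 10 counts, 11212 at 5 CPM), as did the 22 HOX genes except at 5 CPM, which left 13. The coding share of counts, 83.1%, became 89.6% without genes of identical counts and 91.0% without small RNA genes, and the share in the 20 leading genes, 9.25%, became 11.7% by CPM per kb. The KRT5 level of 13628 CPM became 12232 by TMM, 12135 by RLE, 16396 over coding counts and 15372 without the 10 most abundant genes. The OLFM4 level of 13.1 CPM became 15.8 over coding counts. The median of expressed coding genes, 5.22 CPM per kb, became 7.34 by longest transcript, 3.81 over every coding gene with a count, 4.75 by TMM, 4.71 by RLE, 6.16 over coding counts and 5.81 without the 10 most abundant genes. The median of 26 CG in RefSeq windows of the matched genes at 1 CPM or more was 23 in genome windows of all such genes.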

Other observations

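Noncoding RNAs of the signal recognition particle, the 7SK particle and the RNA-processing enzymes were among the most abundant features. RN7SK, which restrains transcription elongation, had 380990 counts, and the same number stands under its overlapping entry 7SK. RN7SL2 and RN7SL1, the RNA of the signal recognition particle, had 141622 and 132875 counts, and RPPH1 and RMRP, the RNAs of RNase P and RNase MRP, had 100283 and 77564. RPPH1 lies wholly inside another gene entry, which had 100359 counts. MALAT1, a nuclear long noncoding RNA, had 56951. Genes classed as long noncoding took 5.14% of counts (interval 5.12 to 5.15, counting error only) and pseudogenes 1.11%. The long noncoding share includes the 100359 counts of the entry around RPPH1, whose exons RPPH1 overlaps over 52.2% of their length. It also includes 68888 counts of ENSG00000281181, an unnamed entry on chromosome 21.

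Among the numbered chromosomes and X, the share of coding genes at 1 CPM or more differed, from 74.9% on chromosome 15 to 47.6% on chromosome X. Chromosome 21 stood at 51.9% and chromosome 11 at 57.6%. These shares were not tested.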
